A study of Mus musculus with 20 samples.

Results

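The genes described here mark microglia, the resident macrophages of the brain, and the reactive states of microglia and astrocytes. They were 35 genes listed by symbol. Of these, 34 had at least 1 probe set carrying their symbol alone, and Spp1 (osteopontin) is only named. The 34 genes were read by 56 of the 45037 probe sets tested, and the array as a whole named 18193 genes. The members fell into 20 genes of resident microglia, 2 genes of macrophages at the borders of the brain (Mrc1 and Lyz2), 7 measured genes of an activated state, and 5 genes of reactive astrocytes. HDAC4, a class IIa histone deacetylase, was the gene removed in this study, and the question put to these genes was whether its loss in the newborn brain came with more resident microglial RNA, with an activation response, or with both.

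RNA of whole brains was hybridised to 20 mouse Affymetrix arrays, 1 per sample. Of these, 10 were homozygous HDAC4 KO pups and 10 were their WT littermates, all untreated and taken at postnatal day 3. The colony was kept by backcrossing to B6CBAF1/OlaHsd females, with 5 female and 5 male arrays of each genotype by the labels. The sources used here do not describe the deleted stretch of Hdac4, and whole brain holds neurons, glia, vessels, choroid plexus and meninges together. In such a mixture, fewer cells of a type and less RNA per cell cannot be told apart.

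Microglia arise from yolk sac progenitors, settle in the brain before birth, and are still multiplying in the first postnatal days, when they clear dying cells and trim synapses. They depend on signalling through the receptor CSF1R and carry a characteristic set of surface proteins, among them TMEM119, P2RY12 and CX3CR1. On injury or infection microglia release cytokines such as IL-1β and TNF, and astrocytes take on a reactive state in which STAT3 drives genes such as Serpina3n and Lcn2.

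The labels were checked first. Hdac4 was lower in the HDAC4 KO arrays at each of its 3 probe sets, with log2 differences of -1.39, -1.19 and -0.46. At 2 probe sets the groups did not overlap, though WT replicate 8 and HDAC4 KO replicate 10 lay next to each other at one of them. In 3 arrays the sex-linked genes Xist and Kdm5d went against the labelled sex, and HDAC4 KO replicate 10 had high signals of both, at 12.3 for Xist and 6.88 for Kdm5d on the log2 scale. The mean signals of the 6 defining microglia genes were ranked among all probe sets, with Csf1r at the 88.5th percentile, C1qa at the 75.3rd, Cx3cr1 at the 72.4th, Aif1 at the 65.8th, P2ry12 at the 61.9th and Tmem119 at the 50.8th. Tmem119 exceeded the median of its array in 3 of 10 WT and 9 of 10 HDAC4 KO arrays, the other 5 in all 20. Background was not measured, and since probe sets bind with different strength, these percentiles neither prove detection nor order the genes by RNA.

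Resident microglia genes leaned upward in HDAC4 KO brains by a small amount, and activation genes did not. Tmem119 rose by 19.8% (ratio of geometric means), and it was the only member called at an adjusted p under 0.05 across all probe sets (limma, Benjamini-Hochberg). No member was called lower. Across all genes the same rule called 1.45% higher and 0.517% lower, so 1 call among 34 genes was near the background. By probe set, 1 of the 56 was called, against 2.06% of all probe sets in either direction.

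Taking the 20 resident genes together, 18 had a fitted difference above 0, against 57.2% of all genes. The median log2 fold change was 0.13, against 0.01 over all genes. Without adjustment, 10 of the 20 were higher at a p under 0.05 and none lower, where 12.8% of all genes were higher and 6.19% lower. Of the 20, 16 exceeded the median of the array in at least 10 arrays, with 14 above 0 and a median of 0.16. Tmem119 is among the 16 mainly through its HDAC4 KO arrays (3 WT and 9 HDAC4 KO arrays above the median), so these filtered values partly depend on the difference itself. Among the 11579 genes that passed this filter, 7181 lay above 0, with a median of 0.02. Without adjustment, 2016 of these were higher and 793 lower. These are counts and medians over a list, whose genes share the same cells and the same arrays, and they carry no test of their own.

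**Figure D1:**
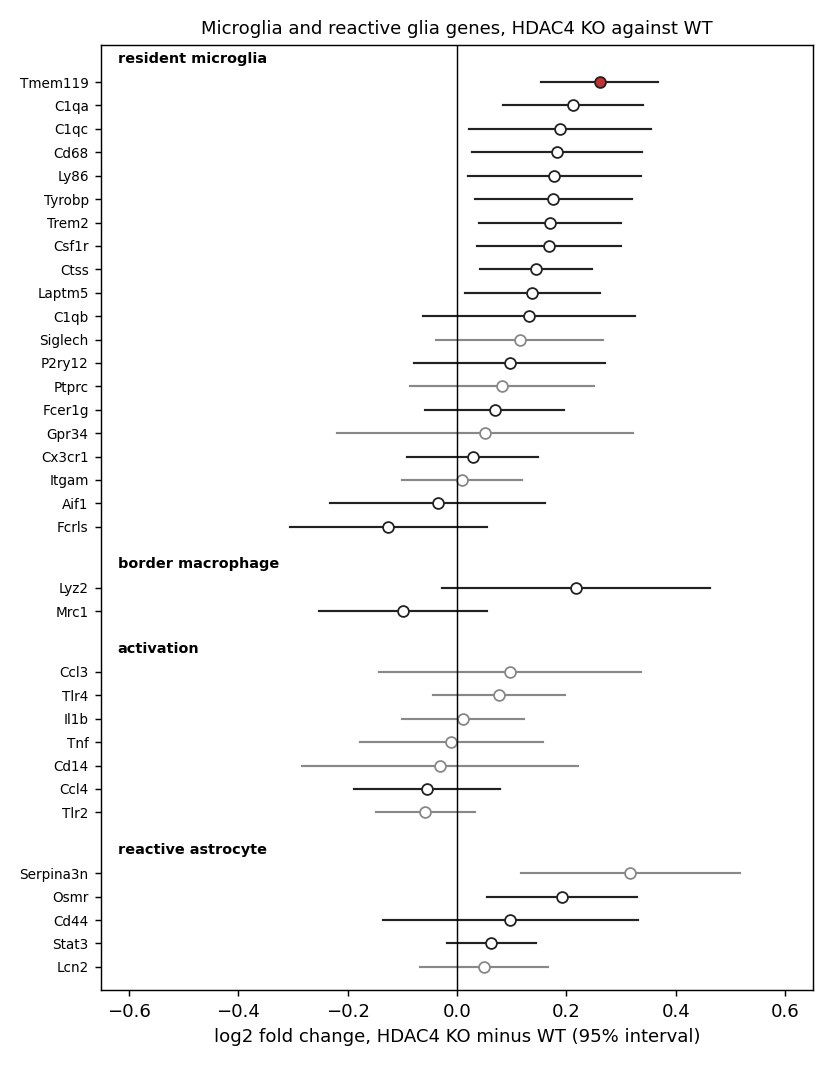
Log2 fold change of each of the 34 measured members (HDAC4 KO minus WT, brightest probe set, 10 arrays per genotype), with its 95% interval as a line, grouped into resident microglia, border macrophage, activation and reactive astrocyte genes. The filled point is Tmem119, the only gene called at an adjusted p under 0.05, and grey marks dim genes, which exceeded the median of the array in fewer than 10 arrays. 18 of 20 resident genes lie right of 0, while the activation genes lie on both sides of it.

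Tmem119 encodes a membrane protein that sets resident microglia apart from other macrophages. Its log2 signal ran from 6.04 to 6.35 in WT arrays, with a median of 6.25, and from 6.27 to 6.68 in HDAC4 KO arrays, with a median of 6.50. All 10 HDAC4 KO arrays lay above the WT mean and 8 of them above the highest WT array, so the groups overlapped only at their edges. The mean was 6.22 ± 0.11 in WT and 6.48 ± 0.12 in HDAC4 KO arrays (SD, n = 10 each), and the difference of 0.26 (SE 0.05, 95% interval 0.15 to 0.37) had an adjusted p of 0.0179 in limma. The call was kept without the 3 arrays that went against their sex label and when any single array was left out, the latter with log2 fold changes from 0.24 to 0.28. It was lost when RNA integrity, read as 3′ minus 5′ signal over control probe sets for actin and Gapdh, entered the fit (log2 fold change 0.28, adjusted p = 0.074). That measure averaged 0.191 ± 0.031 in WT and 0.216 ± 0.030 in HDAC4 KO arrays (SD, n = 10 each), and its part in the result was not tested beyond this fit.

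C1qa, C1qb and C1qc encode the chains of complement C1q, which microglia make in quantity and which tags synapses and debris for removal. C1qa had the second-smallest p of the resident genes. Its log2 signal lay between 8.11 and 8.67 in WT arrays (median 8.30) and between 8.31 and 8.73 in HDAC4 KO arrays (median 8.54). The ranges overlapped, with WT replicate 9 above 8 of the HDAC4 KO arrays. Yet 6 of 10 WT arrays lay below the lowest HDAC4 KO array, and 9 of 10 HDAC4 KO arrays lay above the WT mean. The log2 fold change of 0.21 (SE 0.06, interval 0.08 to 0.34) had an adjusted p of 0.0704 in limma and was not called. C1qc gave 0.19 (adjusted p = 0.216) and C1qb 0.13 (adjusted p = 0.491), with all 3 probe sets of C1qb between 0.08 and 0.15. HDAC4 KO replicate 2 was the lowest HDAC4 KO array for all 3 chains at the brightest probe set. This was not particular to C1q, since the same array was the lowest HDAC4 KO array for Csf1r, Tyrobp, Ctss and other members.

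Csf1r, the receptor that keeps microglia alive, stood at 9.76 ± 0.11 in WT and 9.93 ± 0.18 in HDAC4 KO arrays (SD, n = 10 each). Its 3 probe sets gave log2 fold changes of 0.17, 0.13 and 0.10, with adjusted p of 0.159, 0.145 and 0.111. At the dimmest of them all 10 HDAC4 KO arrays were above the WT mean, and the fold was the smallest. Aif1 (IBA1), the calcium-binding protein used to stain microglia, differed by -0.04 (adjusted p = 0.895).

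Other receptors at the microglial surface were not called. Cx3cr1, the receptor for neuronal fractalkine, differed by 0.03 (interval -0.09 to 0.15), and P2ry12, the ADP receptor that guides microglial processes, by 0.10 (interval -0.08 to 0.27). Gpr34, a lysophosphatidylserine receptor, gave 0.05 with a wide interval from -0.22 to 0.32, and Siglech, a sialic acid-binding lectin, gave 0.11 (adjusted p = 0.438). Both were dim, meaning that they exceeded the median of the array in fewer than 10 arrays. Fcrls, an Fc receptor-like gene of resident microglia, was the lowest of the 20 at -0.13 (interval -0.31 to 0.05, adjusted p = 0.476). Tmem119 thus had the largest log2 fold change of the 20 resident genes. Of other genes used to identify microglia, C1qa gave 0.21 and Csf1r 0.17, while Cx3cr1 and Aif1 lay near 0. Differences between these genes were not tested.

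Trem2, a lipid-sensing receptor, and Tyrobp (DAP12), the adaptor through which it signals, gave log2 fold changes of 0.17 (adjusted p = 0.149) and 0.18 (adjusted p = 0.174). Fcer1g, the other adaptor of this kind, gave 0.07 (adjusted p = 0.604). For Tyrobp 9 of 10 HDAC4 KO arrays exceeded the WT mean, and yet the lowest arrays of both groups met at 8.17. Fcer1g lies on the chromosome that carries Hdac4, as does Ptprc.

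Of the 3 members that act in lysosomes none was called. Ctss, a cathepsin, ran from 8.96 to 9.27 in WT and from 8.94 to 9.39 in HDAC4 KO arrays, with 9 of 10 HDAC4 KO arrays above the WT mean, for a log2 fold change of 0.14 (adjusted p = 0.12). Cd68, a lysosomal glycoprotein of macrophages, gave 0.18 (adjusted p = 0.193). Laptm5, a lysosomal membrane protein of blood-derived cells, had 5 probe sets that disagreed. Its brightest gave 0.14 (adjusted p = 0.222), 2 others 0.21 (adjusted p = 0.0695) and 0.13 (adjusted p = 0.0947), and the remaining ones -0.05 and -0.12 (adjusted p of 0.705 and 0.257). At the probe set with -0.12 all 10 HDAC4 KO arrays lay below the WT mean, so no direction is given for Laptm5. The counts over the resident genes hold it by its brightest probe set alone.

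Of the immune cell genes left, Ly86 (MD-1), which pairs with a Toll-like receptor homologue, gave 0.18 (adjusted p = 0.217), with 6 HDAC4 KO arrays above the highest WT array. Ptprc (CD45), found on all white blood cells, gave 0.08 (adjusted p = 0.65), and Itgam (CD11b), the integrin subunit of myeloid cells, gave 0.01 (interval -0.10 to 0.12). Ptprc and Itgam were dim in whole brain, with mean WT signals of 5.67 and 3.88.

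**Figure D2:**
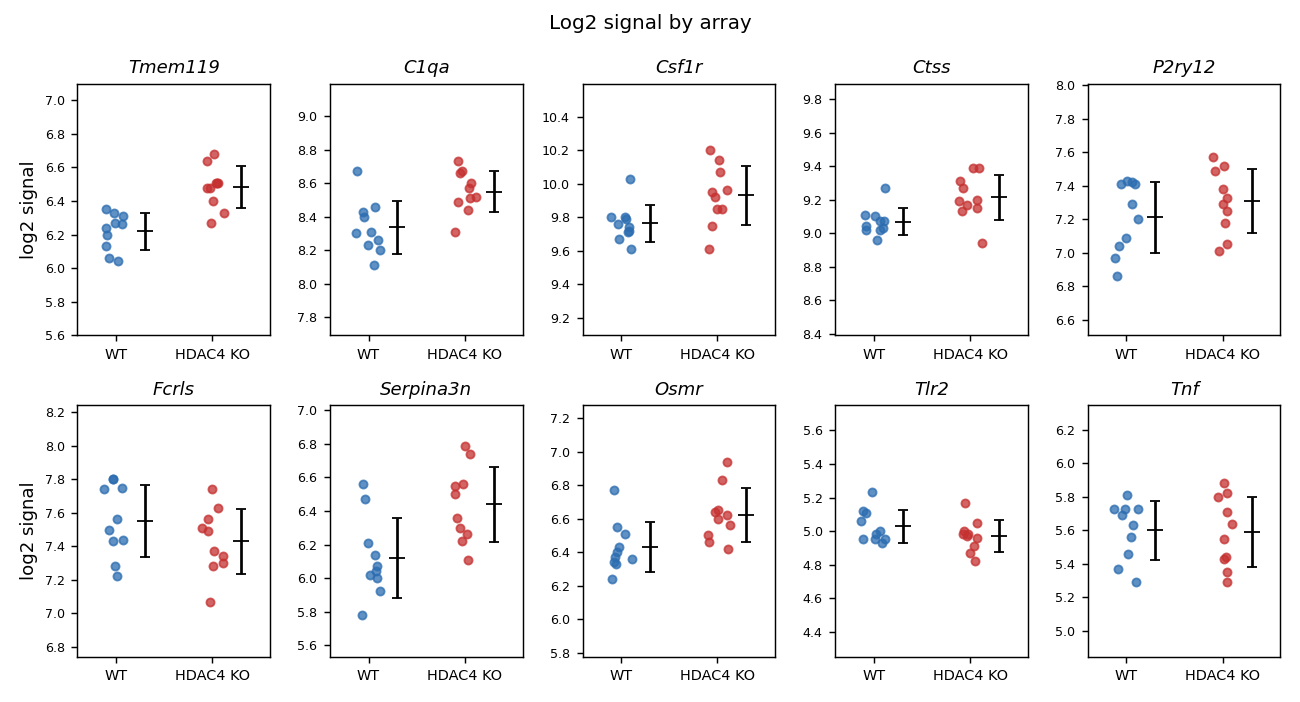
Log2 signal of 10 members in each array (points, 10 WT and 10 HDAC4 KO), with the mean and SD beside them. Every panel spans 1.5 log2 units. The groups are most separate for Tmem119, where 8 HDAC4 KO points lie above the highest WT point, and lie on top of each other for Tnf and P2ry12.

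The upward lean was uneven across arrays. When each resident gene was centred on its mean over the 20 arrays and the 20 genes were averaged, WT arrays ran from -0.19 (replicate 10) through a median of -0.06 to 0.11 (replicate 9). HDAC4 KO arrays ran from -0.20 (replicate 2) through a median of 0.05 to 0.25 (replicate 7), with replicate 10 next at 0.24. Thus the lowest array of all was an HDAC4 KO array, 7 of 10 HDAC4 KO arrays and 2 of 10 WT arrays lay above 0, and the groups overlapped over most of their range.

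HDAC4 KO replicates 7 and 10 were each the highest array for 7 of the 20 resident genes. WT replicate 10 was the lowest for 6 and HDAC4 KO replicate 2 for 5. Left out in turn, HDAC4 KO replicate 10 lowered the resident median to 0.11, and HDAC4 KO replicate 2 raised it to 0.16, the lowest and highest values when any single array was left out. The number of resident genes higher at an unadjusted p under 0.05 then ranged from 7 to 11, and it was 8 without the 3 arrays that went against their sex label and 5 with the 3′ minus 5′ signal in the fit. HDAC4 KO replicate 10 is the array with both Xist and Kdm5d signal, and the part of that array's make-up in its high microglial signal was not tested.

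**Figure D3:**
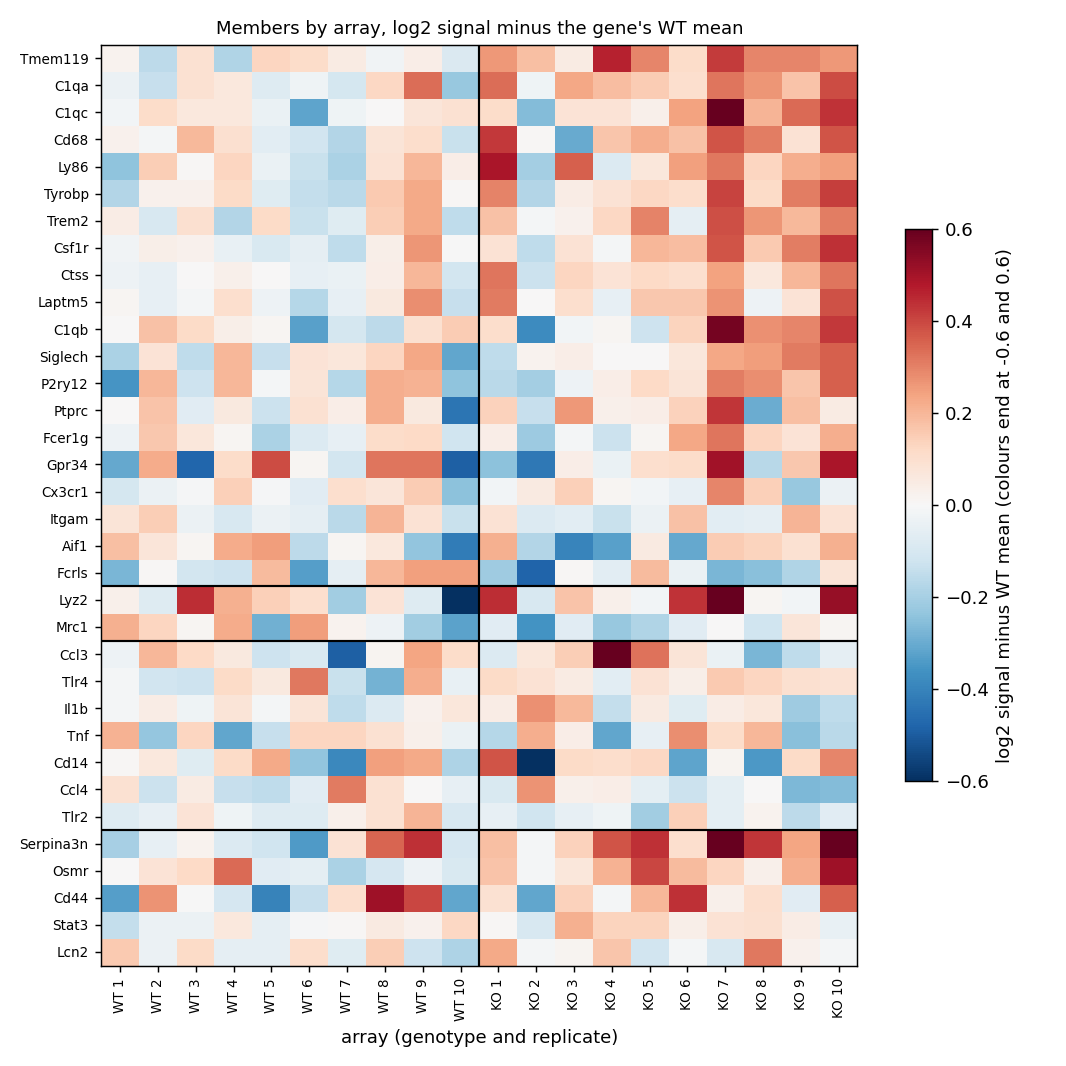
Each row is a member and each column an array, coloured by log2 signal minus the gene's WT mean (red higher, blue lower, colours ending at -0.6 and 0.6), with black lines between the genotypes and the 4 groups of genes. The resident genes at the top are red in most HDAC4 KO columns and darkest in KO 7 and KO 10, while KO 2 is mostly blue.

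PU.1, the product of Spi1, is the lineage factor of myeloid cells and binds purine-rich sites built on the letters GGAAGT, with GAGGAAGT as a longer form that contains the shorter one. RefSeq windows of GRCm38.p6, from 250 bases before to 50 after each gene start, were on hand for 27 of the 35 members. GGAAGT, read on both strands, was found in the windows of 18 of these 27 genes (66.7%) and of 26.5% of all 27025 genes. It was found in 9 of 15 resident genes, 5 of 5 activation genes and 2 of 5 reactive astrocyte genes. The activation genes counted here include Spp1, which had no measured value. GAGGAAGT was found in 3 of the 27 (11.1%) and in 3.69% of all genes. The letters thus occurred in windows of genes that leaned up and of genes that did not, and a match is a run of letters and no measured binding. The 120 bases before the start are shown for 3 resident genes whose match falls inside them, C1qb (chr4:136886201-136886320, minus strand), P2ry12 (chr3:59262986-59263105, minus strand) and Laptm5 (chr4:130913196-130913315, plus strand), and for Tnf (chr17:35202008-35202127, minus strand) as an activation gene with the same letters. Each is written along its gene's own strand, with capitals marking GGAAGT or its reverse complement.
C1qb: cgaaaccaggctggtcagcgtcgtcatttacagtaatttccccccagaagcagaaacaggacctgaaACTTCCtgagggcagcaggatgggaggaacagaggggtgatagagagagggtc
P2ry12: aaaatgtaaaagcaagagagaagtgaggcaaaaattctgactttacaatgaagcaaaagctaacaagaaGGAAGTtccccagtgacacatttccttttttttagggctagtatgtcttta
Laptm5: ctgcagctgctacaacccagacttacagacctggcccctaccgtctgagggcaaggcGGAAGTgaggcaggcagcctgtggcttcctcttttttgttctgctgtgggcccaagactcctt
Tnf: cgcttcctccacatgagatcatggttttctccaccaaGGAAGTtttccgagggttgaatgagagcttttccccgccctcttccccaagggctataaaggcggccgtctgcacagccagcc

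The border macrophage genes went opposite ways without a call. Lyz2, a lysozyme of macrophages and neutrophils, ran from 6.61 to 7.70 in WT arrays (median 7.31) and from 7.16 to 7.95 in HDAC4 KO arrays (median 7.36), which gave 0.22 on the log2 scale (SE 0.12) and an adjusted p of 0.342. Its medians differed far less than its means, and WT replicate 10 was the lowest array. Mrc1, the mannose receptor of perivascular and meningeal macrophages, ran from 7.31 to 7.88 in WT (median 7.64) and from 7.27 to 7.70 in HDAC4 KO arrays (median 7.56), which gave -0.10 (SE 0.07) and an adjusted p of 0.523. For Lyz2, 3 HDAC4 KO arrays lay above the highest WT array and 2 WT arrays below the lowest HDAC4 KO array, while for Mrc1 no HDAC4 KO array lay above the WT range and no WT array below the HDAC4 KO range.

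Activation genes gave no member with an unadjusted p under 0.05 among the 7 measured. Their log2 fold changes ran from -0.06 to 0.10 with a median of -0.01, 3 of them lying above 0. All but Ccl4 were dim, and their intervals bound the change in probe set signal only. Since background was not measured, they do not bound the change in RNA. Tlr4, the receptor for bacterial lipopolysaccharide, ran from 3.54 to 4.14 in WT (median 3.79) and from 3.76 to 3.98 in HDAC4 KO arrays (median 3.91), a log2 fold change of 0.08 (interval -0.04 to 0.20, adjusted p = 0.524). Its HDAC4 KO arrays lay inside the WT range, and its 3 other probe sets gave differences from -0.03 to 0.01.

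Tlr2, the receptor for bacterial lipoproteins, ran from 4.93 to 5.23 in WT (median 4.99) and from 4.82 to 5.17 in HDAC4 KO arrays (median 4.97), a log2 fold change of -0.06 (interval -0.15 to 0.03, adjusted p = 0.527). Cd14, the co-receptor of TLR4, differed by -0.03 with an interval from -0.28 to 0.22. Among the cytokines, Il1b differed by 0.01 (interval -0.10 to 0.12) and Tnf by -0.01 (interval -0.18 to 0.16). The chemokine genes Ccl3 and Ccl4, which draw in white blood cells, differed by 0.10 (interval -0.14 to 0.34) and -0.06 (interval -0.19 to 0.08). For Ccl3 a single array, HDAC4 KO replicate 4 at 5.55, lay well above the others, while the medians were 4.67 in WT and 4.65 in HDAC4 KO arrays.

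All 5 reactive astrocyte genes had fitted differences above 0, with a median of 0.10, and none was called. The share of all genes above 0 was 57.2%. The median was 0.06 without WT replicate 5, 0.15 without WT replicate 8 and 0.06 when the probe sets of a gene were averaged. Serpina3n, a secreted protease inhibitor that is among the strongest markers of reactive astrocytes, had the largest log2 fold change of the 34 members. It was dim, exceeding the median of the array in 2 WT and 6 HDAC4 KO arrays. It ran from 5.78 to 6.56 in WT arrays (median 6.06) and from 6.11 to 6.79 in HDAC4 KO arrays (median 6.43), with 9 of 10 HDAC4 KO arrays above the WT mean and 3 above the highest WT array. The difference was 0.32 (SE 0.10, interval 0.12 to 0.52, adjusted p = 0.0841). WT replicates 8 and 9 sat within the HDAC4 KO range at 6.47 and 6.56, and the adjusted p was 0.0328 without WT replicate 9 and 0.0432 without HDAC4 KO replicate 2.

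Osmr, the receptor for oncostatin M that feeds into STAT3, ran from 6.24 to 6.77 in WT arrays (median 6.39) and from 6.42 to 6.94 in HDAC4 KO arrays (median 6.61). The difference of 0.19 (SE 0.07) had an adjusted p of 0.12, with 9 of 10 HDAC4 KO arrays above the WT mean, while its 2 other, dim probe sets gave 0.04 and -0.05. Stat3 itself gave 0.06 (adjusted p = 0.420) at its brightest probe set and 0.10 (adjusted p = 0.103) at the next, where 5 HDAC4 KO arrays lay above the highest WT array. Cd44, a hyaluronan receptor, gave 0.10 with an SD of 0.32 among WT arrays, and 0.00 or less at 2 of its other probe sets. Lcn2, a secreted iron-binding protein that rises steeply in reactive astrocytes, was dim and differed by 0.05 (interval -0.07 to 0.17). Averaged over the 5 genes, 9 of 10 HDAC4 KO arrays and 2 of 10 WT arrays lay above the centre, with HDAC4 KO replicate 10 the highest at 0.22 and HDAC4 KO replicate 2 the lowest of its group at -0.16.

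Wider lists were read in the same way. Of 35 other microglia genes measured, 27 lay above 0, against 57.2% of all genes. Their median was 0.04, and none was called (smallest adjusted p of 0.0604). At an unadjusted p under 0.05, 9 were higher and 1 lower, against 12.8% and 6.19% of all genes. Of 15 genes of phagocytic and amyloid-responsive microglia, 14 lay above 0, also with a median of 0.04 and no call. Ligands and survival signals for microglia had a median of 0.02 over 10 genes and complement genes downstream of C1q one of -0.02 over 7 genes, with no call in either. Other border macrophage genes had a median of 0.06 over 11 genes and no call, with values from -0.25 to 0.21. Of these 11, 2 were higher and 2 lower at an unadjusted p under 0.05, beside the same 12.8% and 6.19% of all genes.

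Of 25 genes of inflammatory signalling, which had a median of 0.00, only Ptgs2 was called. Ptgs2 (COX-2), the inducible enzyme of prostaglandin synthesis, is also made by active neurons, and its brightest probe set ran from 3.29 to 3.51 in WT and from 3.45 to 3.84 in HDAC4 KO arrays, which made 0.25 (SE 0.04) with an adjusted p of 0.0143. This probe set was dim, and the other one for the gene differed by 0.04 (adjusted p = 0.606). Other reactive astrocyte genes had a median of 0.01 over 21 genes. Of these, 1 was higher and 3 lower at an unadjusted p under 0.05, against 12.8% and 6.19% of all genes. The STAT3 pathway had a median of 0.01 over 13 genes. Neither list held a call.

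Markers of other cell types were read beside these values. Neuron and endothelial markers had medians of 0.00 and -0.01, astrocyte markers -0.01, and oligodendrocyte lineage markers -0.04. Of the 8 neuron markers, 2 were higher at an unadjusted p under 0.05, against 12.8% of all genes, and none was called. Choroid plexus markers had a median of -0.13 with 1 of 7 genes above 0, and Ttr, the transthyretin that this tissue secretes, fell by 0.14 in log2 signal (SE 0.03) with an adjusted p of 0.0420 at its brightest probe set. Its 3 other probe sets gave -0.17, -0.12 and -0.09 (adjusted p of 0.0635, 0.258 and 0.239). Meningeal fibroblast markers had a median of -0.08, with 1 of 8 above 0 and no call. Erythroid, neutrophil, and T and B cell markers had medians between -0.03 and -0.01. Only 1 of 6 erythroid and 1 of 9 neutrophil genes were not dim. The 8 measured T and B cell genes were all dim. The genes that were not dim, Alas2 (erythroid) and Prtn3 (neutrophil), gave 0.18 (adjusted p = 0.272) and 0.16 (adjusted p = 0.0568) in limma, neither called. With background not measured, these medians do not bound the blood content. Averaged by array, choroid plexus markers ranged from -0.18 to 0.26 in WT and from -0.25 to 0.05 in HDAC4 KO arrays, meningeal markers from -0.16 to 0.20 and from -0.27 to 0.09. The share of these tissues in the dissected brains, and its part in the microglial values, was not tested.

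**Figure D4:**
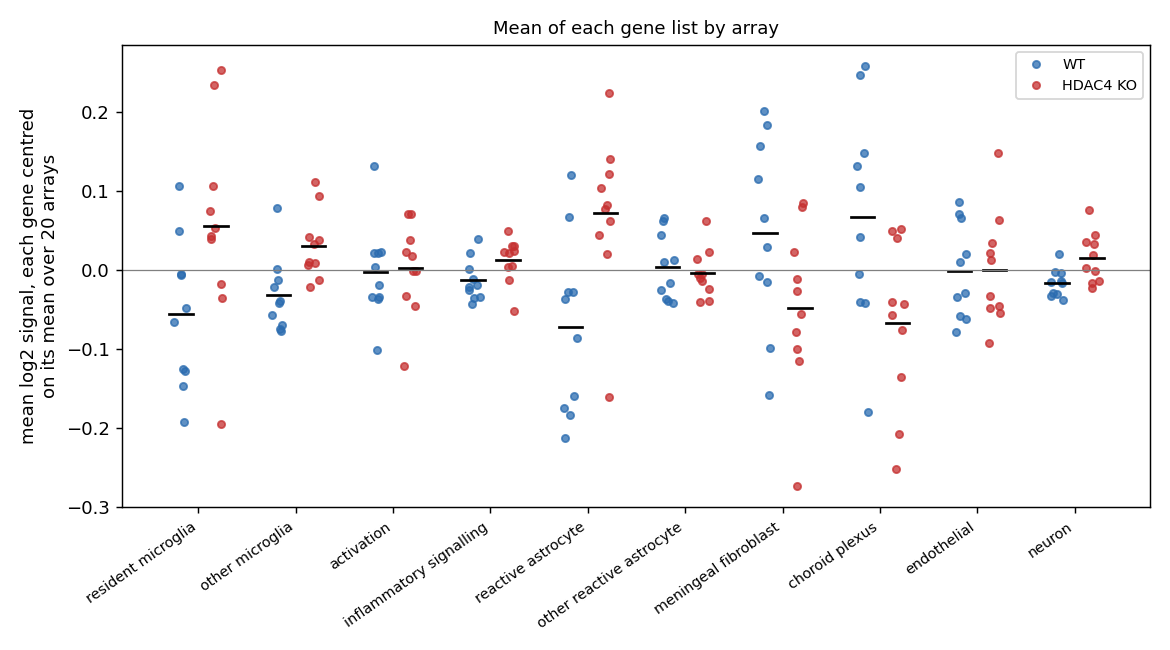
Mean log2 signal of each gene list in each array after centring every gene on its mean over the 20 arrays (points, bars at the group means). HDAC4 KO arrays sit higher on average for the resident microglia and the 5 reactive astrocyte genes, and by less for other microglia genes, neuron markers and inflammatory signalling. They sit lower for choroid plexus and meningeal markers. For every list shown the groups overlap.

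Sex was examined last. By the labels of all 20 arrays, no member had a genotype difference that differed between females and males, with a smallest adjusted p of 0.917 in limma. Across all genes 0% were called and 4.77% had an unadjusted p under 0.05, and of the members only Aif1 did, at 0.15 in females and -0.22 in males. No member was called between labelled females and males, where 0% of all genes were called and 3.17% had an unadjusted p under 0.05 (none of the members). In this fit even Xist (adjusted p = 0.238) and Kdm5d (adjusted p = 0.0626) were not called, so its lack of calls does not show that the sexes were alike.

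The fits were therefore also read without the 3 arrays that went against their label, which left 4 female and 4 male WT arrays and 5 female and 4 male HDAC4 KO arrays. Xist (adjusted p = 4.36e-18) and Kdm5d (adjusted p = 1.65e-20) were then called between the sexes, as were 0.044% of all genes. No member was called between the sexes, and C1qb and C1qc had an unadjusted p under 0.05, as did 3.93% of all genes. No member had a called interaction either (0% of all genes, smallest member adjusted p of 0.517 in limma).

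At an unadjusted p under 0.05, 7 of the 34 members had an interaction in this smaller set, against 7.32% of all genes. They were Csf1r, Ctss, Itgam, Ptprc, Laptm5, Gpr34 and Mrc1, and in each the genotype difference at the brightest probe set was higher in females. Csf1r gave 0.26 (SE 0.07) in females and 0.04 (SE 0.07) in males, and Ctss gave 0.24 (SE 0.06) and 0.04 (SE 0.06). The resident microglia median was 0.25 in females and 0.03 in males, where with all 20 arrays it was 0.20 and 0.10. The arrays left out include extreme ones for this list. In the mean of the resident genes, WT replicate 9, labelled female, was the highest WT array at 0.11. HDAC4 KO replicate 10, labelled male, lay at 0.24, and WT replicate 5, labelled male, at -0.05. The part of these arrays in the wider gap between the sexes was not tested. Tmem119 was higher by 0.30 (SE 0.08) in females and 0.26 (SE 0.09) in males, an interaction of 0.04 (SE 0.12).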

How the data were processed

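Whole brain RNA of 20 pups was measured, 1 array each. Per the labels, total RNA was labelled with a 3′ in vitro transcription kit. The authors deposited log2 signals, 1 per probe set and array, already normalized between arrays (array medians from 6.26 to 6.32). The sources used here do not name the method of summary. The precision is limited by the number of arrays.

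Of 45101 probe sets, 64 controls were left out. Symbols came from the platform annotation, where 34945 probe sets carry 1 symbol. A gene was read at its brightest such probe set, by mean over 20 arrays. The genotype comparison used limma 3.58.1 (lmFit, eBayes; R 4.3.3) without covariates, and p-values were adjusted by Benjamini-Hochberg over the 45037 probe sets tested. Whether the samples of a genotype come from separate litters is not given, so p-values measure the spread between these samples. A gene is dim where fewer than 10 arrays exceed their own median. The fits were tested on simulated data. The methods' t-test, other scalings, covariates and arrays left out served as alternatives.

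Members and lists were chosen with earlier results of these data known. The rule for naming took every member, gave array values for called members and for the 2 with the smallest p in each group, and took called genes from other lists. Values of further members were added after they were seen. Promoter sequences are from RefSeq, GRCm38.p6, and were searched for letters only, since the arrays name no genome build.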

Additional observations from a re-analysis of the deposited data

Results flagged for a closer look

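In each group of 10 arrays the distance of the highest or lowest array to its neighbour was set against the range of the group (Dixon's test at 95%). Of 68 groups tested, 7 had such an array, where chance gives about 1 in 20, or 3.4. Csf1r stood at 10.03 and Ctss at 9.27 in WT replicate 9, above the next WT arrays at 9.80 and 9.11. This array was also the highest WT array for C1qa and Tyrobp and went against its sex label. C1qc was low in WT replicate 6, at 7.43 against 7.71 for the next array, and Ptprc was low in WT replicate 10, at 5.23 against 5.54. In WT replicate 7, Ccl3 was low at 4.14 (next 4.51) while Ccl4 was high at 6.73 (next 6.51). In HDAC4 KO replicate 4, Ccl3 was high at 5.55 (next 4.96).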

How the results depend on the processing

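Each result was recomputed under 12 other settings and without each of the 20 arrays in turn. The number of members higher in HDAC4 KO, 1 as reported, became 2 with trend and robust eBayes and 2 with dim probe sets left out (C1qa added, adjusted p of 0.0469 and 0.0394; Tmem119 passes that filter mainly through its HDAC4 KO arrays), and 0 with the 3′ minus 5′ signal as a covariate. It ran from 1 to 4 when single arrays were left out: 4 without HDAC4 KO replicate 2 (C1qa, Ctss and Serpina3n added), 3 without WT replicate 9 (C1qa and Serpina3n added) and 2 without HDAC4 KO replicate 3 (Cd68 added, adjusted p = 0.0401). It stayed at 1 with the methods' t-test. No member was lower under any setting. The medians kept to 0.11 to 0.16 for resident, -0.06 to 0.02 for activation and 0.06 to 0.15 for reactive astrocyte genes, so the sign of the activation median is not settled. Of 1076 recomputed member values 28 changed sign, all uncalled, in 7 genes. With dim probe sets left out, 12 members gave no value. WT and HDAC4 KO arrays share replicate numbers, but only 1 of 10 pairs correlated above 0.1 (range -0.149 to 0.162), so the numbers were not taken as pairs. With the replicate block, 1 member was higher, and the block changed no other call. The counts of genes at an unadjusted p were added after seeing the data.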
